A study of Mus musculus with 24 samples.

Results

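In mice given Ruminococcus flavefaciens by gavage, the medial prefrontal cortex (mPFC) was compared with that of mice not given the bacterium, over mice with and without the antidepressant duloxetine. All 24 mice of the study entered this comparison, 12 given the bacterium and 12 not, and 14974 of the 15456 genes in the table were tested. The question was which genes differ with the bacterium whether or not the drug is given.

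The mice were male BALB/c OlaHsd, of age week 11, housed in groups, and each of the 4 groups held 6 of them. Control mice received vehicle by injection and gavage, and duloxetine mice received the drug by daily injection. R. flavefaciens mice received the cultured bacterium by gavage, and the fourth group received R. flavefaciens and duloxetine. The labels name no mutant allele or transgene, and no group received dead bacteria or another species, so an effect of this species cannot be told apart from one of gavaged bacteria in general. Which mice shared a cage is not given in the sources used here. The labels open with a number that several mice of a group can share and that no 2 groups share. What it marks is not given, and it cannot be told apart from the treatment. The tests below treat mice as independent. Poly(A) RNA was sequenced from a punch of the mPFC, 1 library a mouse. The mice without duloxetine (R. flavefaciens against control) and the mice with it (both treatments against duloxetine) are the 2 strata of the comparison. They share no mouse.

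R. flavefaciens is an anaerobe of the gut that breaks down plant cell walls, and it lives far from the tissue measured here. The mPFC is a cortical region known for its part in mood and in the response to stress. Its excitatory neurons signal through glutamate receptors, and their energy comes mainly from oxidative phosphorylation, in which complexes I, III and IV of the mitochondrial inner membrane pump protons and ATP synthase uses the gradient. Some of the subunits are encoded in the mitochondrial genome and the others in the nucleus.

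Mean depth over the genes in the table differed by less than the spread between mice. The reads recovered for these genes ran from 12811413 to 15607343 a library, and other reads are not known here. Their mean was 14295434.25 in the 12 mice given R. flavefaciens and 14117184.25 in the other 12 (exact permutation test within strata, two-sided, p = 0.443). The values are counts normalized by the authors for depth. The effect of the bacterium is the mean of the 2 within-stratum log2 fold changes, on the log2(normalized count + 1) scale, from one limma fit with Benjamini-Hochberg adjustment over all genes tested, and a gene is called at an adjusted p under 0.05.

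The tissue carried the markers of cortex. Slc17a7, the vesicular glutamate transporter of cortical excitatory neurons, had a mean normalized count of 25880 in control mice and 24740 in R. flavefaciens mice. Some libraries stood apart from their groups. Of the R. flavefaciens mice, mouse 8_4 had the highest summed level of the 8 striatal markers, 6089 against a group median of 1876, and of the 3 choroid plexus markers tested, 791 against a group median of 85.5. Mouse 9_3 had the highest score of the cytoplasmic ribosomal protein genes, 0.46, and the lowest of the sodium and calcium channel genes, -0.51, where a score is the mean over a list of each gene's log2 value minus its mean over all mice. With both treatments, mouse 11_4 had the highest summed level of the striatal markers, 3570 against a group median of 1936, and the counts of mouse 12_2 differed from those of mouse 12_4 by a chi-square of 20.8 per degree of freedom, where pairs of mice within a group ran from 2.07 to 25.9. Where leaving out 1 mouse moved the median of a list by over 1.5 times, the median without that mouse, or the lowest and highest median over the mice left out, is given below.

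Averaged over duloxetine, 4 genes were called, which is 0.0267% of the genes tested. Olfr729, Cox8a and mt-Te rose with the bacterium and Dpysl2 fell. At an adjusted p under 0.1 the number was 201 genes, or 1.34%, of which 90 were higher and 111 lower. The count depended on single mice: it was 14 without mouse 9_3 and 3 without mouse 8_4, and it ran from 1 without duloxetine mouse 5_4 to 135 without R. flavefaciens mouse 8_3, with 69 without R. flavefaciens mouse 9_2.

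Olfr729 encodes an odorant receptor, one of a large family of G protein-coupled receptors of the nose, a few of which are transcribed outside it. The gene (ENSMUSG00000049011.2) lies on chromosome 14 at 50144731 to 50152910 on the minus strand of GRCm38, and no other annotated gene overlaps it. Its normalized count ran from 63.67 to 95.71 in control mice (median 87.2) and from 163 to 465 in R. flavefaciens mice (median 182.5). With duloxetine it ran from 90.61 to 157.7 (median 125.4), and from 161.4 to 467.7 when the bacterium was added (median 242.5). The groups did not overlap in either stratum, and every one of the 12 mice given the bacterium lay above every one of the 12 others. The average log2 fold change was 1.181 ± 0.16 (SE), or 2.27-fold (limma adjusted p = 0.000874; exact permutation test within strata, two-sided, p = 2.34e-06, the smallest that the 853776 regroupings can give). It stayed called in each of the 24 fits that left out 1 mouse.

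Cox8a encodes a small subunit of cytochrome c oxidase (complex IV), the last enzyme of the respiratory chain. It (ENSMUSG00000035885.4) lies on chromosome 19 at 7215153 to 7217616 on the minus strand. The normalized count was 2626 to 3193 in control mice (median 2994) and 3397 to 4603 in R. flavefaciens mice (median 3703), with no overlap. With duloxetine the range was 2955 to 3674 (median 3254), and with both treatments 3446 to 4124 (median 3611), so that 3 of 6 mice exceeded the highest duloxetine mouse. The average log2 fold change was 0.27 ± 0.046 (limma adjusted p = 0.0173; exact permutation p = 2.81e-05). Leaving out duloxetine mouse 5_4 raised the adjusted p to 0.0517, and no other mouse ended the call.

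mt-Te is the mitochondrial transfer RNA for glutamate, a transcript of 69 bases at 14071 to 14139 on the minus strand of the mitochondrial genome. Its sequence in the GENCODE vM21 annotation, 5′ to 3′, is shown because it is the shortest of the called genes and was measured in libraries selected for poly(A) RNA.
mt-Te: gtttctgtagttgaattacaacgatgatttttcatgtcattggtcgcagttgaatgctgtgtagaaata
The normalized count was 429.1 to 504.1 in control mice (median 453.8) and 506.2 to 905.6 in R. flavefaciens mice (median 615.7). With duloxetine it was 497.1 to 644.7 (median 568.9), and with both 601.9 to 977 (median 703.2). The strata differed in overlap: none without the drug, and 5 of 6 mice above the highest duloxetine mouse with it. The average log2 fold change was 0.42 ± 0.078 (limma adjusted p = 0.0371; exact permutation p = 1.41e-05). The call held in 9 of the 24 fits that left out 1 mouse, with an adjusted p of up to 0.108, and it was lost after quantile normalization and after rescaling to the 75th percentile. mt-Nd6 (0.195 ± 0.071) lies directly beside mt-Te on the same strand, at 13552 to 14070. Whether the reads of mt-Te came from the transfer RNA itself or from a transcript joined to mt-Nd6 was not tested. No other mitochondrial transfer RNA was called, and their log2 fold changes ran from -0.253 (mt-Th) to 0.259 (mt-Ty).

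Dpysl2 encodes a cytoplasmic protein that binds tubulin and promotes axon growth, also known as CRMP2. The gene spans 66802864 to 66868688 on the minus strand of chromosome 14. Normalized counts were 4495 to 5110 in control mice (median 4737) and 3871 to 4708 in R. flavefaciens mice (median 4484), which overlap. With duloxetine they were 4416 to 5201 (median 5053) and with both treatments 3803 to 4315 (median 4088), with no overlap. It fell by 0.21 ± 0.036 on the log2 scale (limma adjusted p = 0.0173; exact permutation p = 3.05e-05). The 2 strata gave -0.14 and -0.28, a difference with an unadjusted limma p of 0.0548. The call was lost in 4 of the fits that left out 1 mouse (limma adjusted p up to 0.0557) and after quantile normalization. It was also lost once a trend of each mouse's values with transcript length was removed (log2 fold change -0.16, limma adjusted p = 0.108).

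**Figure D1:**
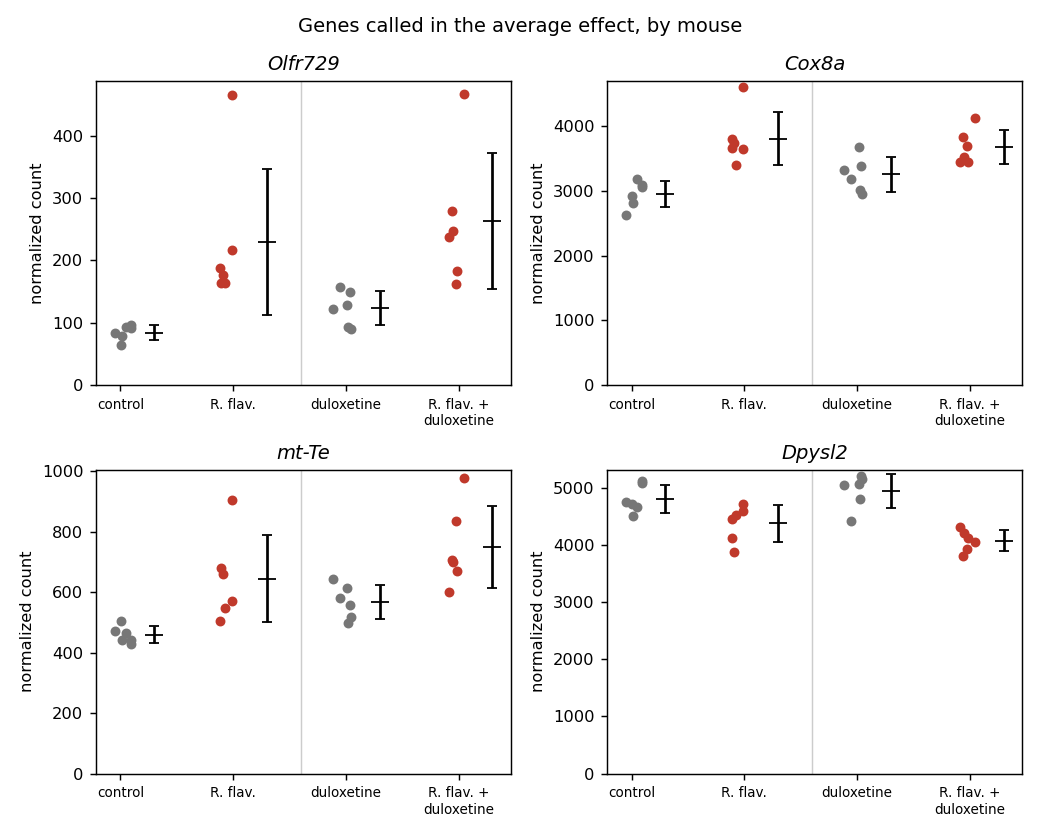
Normalized count (linear axis from 0) of the 4 genes called in the average effect, 1 point a mouse, 6 mice a group, with the mean and SD as black bars. Mice given R. flavefaciens are in red, and the grey line separates the mice without duloxetine from those with it. Olfr729 is higher in all 12 red mice than in the 12 grey ones.

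DESeq2 on the recovered reads called more genes. It filters on the mean before it adjusts, which left 6555 genes with an adjusted p (Olfr729 was not among them), and of these it called 441 (6.73%), 155 higher (2.36%) and 286 lower (4.36%). With the same p-values adjusted over every gene tested the number was 194, and limma adjusted over the 6555 genes alone gave 18 calls. edgeR called 4. The genes called by DESeq2 had small changes, with a median size of 0.16 on the log2 scale among the higher and 0.17 among the lower. Of the 441, 440 had one direction in both strata, which the selection on the mean of both strata largely fixes. The size was larger without duloxetine in 379 of them, with a median of 0.23 against 0.12.

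The 2 strata were then set side by side, since they share no mouse. Without duloxetine 2939 genes (19.6%) had an unadjusted limma p under 0.05 and 4 were called. Without mouse 9_3 these were 1724 genes and 0 calls, and leaving out other single mice gave up to 616 calls (without 9_2). A block for a shared first label number gave 221 calls, and the stratum fitted alone gave 0. With duloxetine these were 883 genes (5.9%) and 0 calls by limma or edgeR, with 1 by DESeq2. Of the 2939 genes, 73% had the same direction with duloxetine, against 58.4% of all genes tested. The share was 76.9% for genes that were lower without the drug and 68.3% for those that were higher, and over all genes 48.8% were higher with duloxetine. Of the 883 genes, 63.5% had the same direction without the drug. Between strata, the fold changes of all genes had a Pearson r of 0.145 on the log2 scale, or 0.262 among genes with a mean of at least 50. Genes are not independent replicates, and no p is given for these shares.

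Past an unadjusted p of 0.05 in both strata were 137 genes with one direction (0.915%) and 23 with opposite directions (0.154%). The first count ran from 72 without mouse 12_2 to 259 without mouse 12_4 (74 without 5_4, 87 without 6_1, 209 without 6_2 and 230 without 12_3), and the second from 16 without 1_1 to 52 without 8_4 (36 without 5_4). Of the 137, 47 were higher with the bacterium and 90 lower. In the average effect DESeq2 called 26 of the higher and 75 of the lower genes. The groups were separate in both strata for 4 genes (0.0267%), which were Olfr729, Tma7, Dync2h1 and Rnf150. Since these counts use the same p-values that define them, they describe the genes and are no further test. In the single strata 19.6% and 5.9% of genes were past that level. Whether more genes passed in both than unrelated strata would give was not tested.

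**Figure D2:**
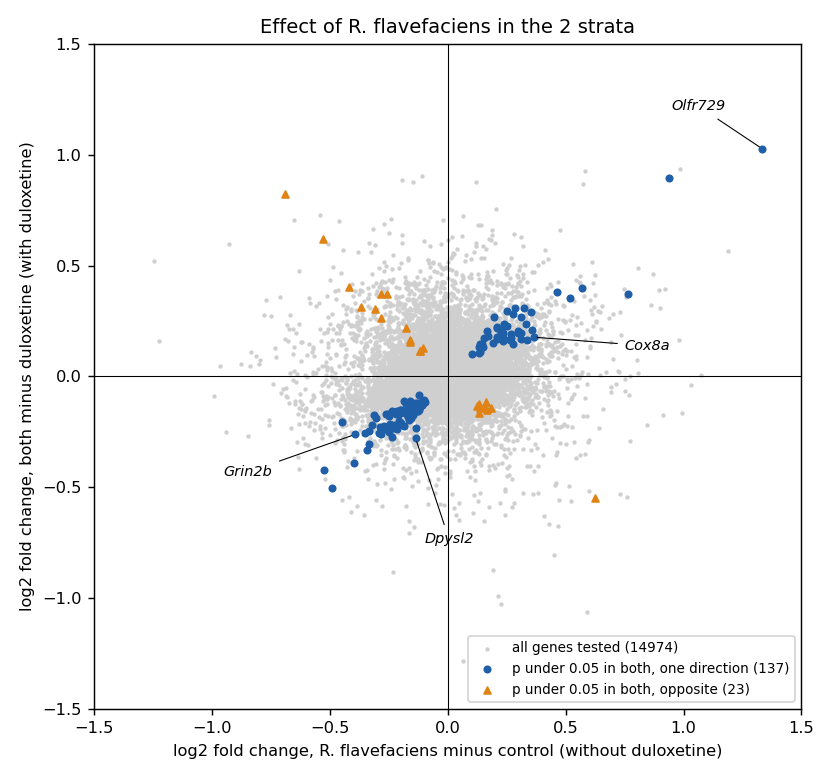
Log2 fold change of each of the 14974 genes with the bacterium, without duloxetine on the x axis and with it on the y axis. The 137 genes past an unadjusted p of 0.05 in both strata with one direction are blue circles, the 23 with opposite directions are orange triangles, and 1 gene lies outside the axes.

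Among the 137 genes, against a share of 0.915% over all genes tested, 2 of 15 nuclear complex IV genes (Cox8a and Cox6c), 1 of 10 complex III genes (Uqcrb) and 1 of 80 cytoplasmic ribosomal protein genes (Rpl39) were among the higher ones. Nlgn3 and Nrxn3 of the 24 postsynaptic entries were among them too, higher and lower, as was 1 of 19 protein kinase A genes. None of the 36 complex I genes, 17 ATP synthase genes, 13 mitochondrial mRNAs and 77 mitochondrial ribosomal protein genes was among the 137, and none of the 15 sodium and calcium channel, 35 potassium channel, 13 GABA-A receptor and 7 metabotropic glutamate receptor genes. Usmg5, a small protein of ATP synthase that is not in the list of 17, was among the 137. Its medians were 1142 in control and 1314 in R. flavefaciens mice, and 1174 and 1301 with duloxetine (log2 fold change 0.21 ± 0.046, limma adjusted p = 0.0891). Uqcrb, a subunit of complex III, had medians of 494.1 and 577.6 without the drug and of 498.4 and 575 with it (0.22 ± 0.048). Tma7, a small protein associated with ribosomes, ran from 889.4 to 1119 in control and from 1128 to 1702 in R. flavefaciens mice. With duloxetine its range was 1012 to 1130, and with both 1147 to 1244 (log2 fold change 0.24 ± 0.052, limma adjusted p = 0.0891, exact permutation p = 2.34e-06). None of these passed adjustment over all genes. Libraries of this kit do not mark strand. Usmg5, Tma7 and Uqcrb overlap annotated genes on the opposite strand, as do Med21, Dync1h1, Pcdh19, Rnf150, Mast1 and Grin2b. Rnf150 and Mast1 each also overlap 1 gene on their own strand. Reads in the shared stretches cannot be told apart by strand. Overlap was taken over whole gene spans with introns, so the share of reads concerned is not known.

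Others of the 10 higher genes with the smallest p have diverse roles. AC161763.1, a lincRNA of 168 bases on chromosome 7, had a normalized count of 14020 to 16380 in control and 19960 to 45880 in R. flavefaciens mice, without overlap (log2 fold change 0.57 ± 0.12). With duloxetine it was 15170 to 29080, and 19490 to 35010 with both. Med21, a subunit of the Mediator complex of transcription, was higher by 0.25 ± 0.055. Sat1, the rate-limiting enzyme of polyamine breakdown, was higher by 0.27 ± 0.062, and Pdrg1, a prefoldin-like protein, by 0.21 ± 0.048. Limma adjusted p-values of the 4 genes lay between 0.0891 and 0.0983.

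Among the lower genes were 3 of 17 ionotropic glutamate receptor genes (Grin2b, Grin1 and Grid1), 4 of 85 cadherins and protocadherins (Pcdhb16, Pcdh19, Pcdh17 and Pcdha11) and 2 of 45 motor protein genes (Dync2h1 and Dync1h1). Dync2h1, the heavy chain of the dynein that moves cargo in cilia, ran from 807.9 to 938.8 in control and from 475.2 to 804.3 in R. flavefaciens mice. With duloxetine it ran from 805.4 to 887.1, and with both from 586.4 to 781.1 (log2 fold change -0.30 ± 0.062, limma adjusted p = 0.0891, exact permutation p = 2.34e-06). Dync1h1, the heavy chain of the cytoplasmic dynein that drives retrograde axonal transport, had medians of 15910 and 14000 without the drug and of 15550 and 13110 with it (-0.25 ± 0.053). All 6 R. flavefaciens mice were below the control range for Dync1h1, and 5 of 6 mice with both treatments were below the duloxetine range.

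Grin2b, a subunit of the NMDA-type glutamate receptor, ran from 11340 to 13640 in control and from 6569 to 12250 in R. flavefaciens mice. With duloxetine the range was 10920 to 13820 and with both 9033 to 11960 (log2 fold change -0.33 ± 0.076, limma adjusted p = 0.0983). Pcdhb16, a clustered protocadherin of the neuronal surface, had -0.33 ± 0.068. It overlaps 3 annotated genes on its own strand, so that its reads could be shared. Pcdh19, a protocadherin of the X chromosome, had -0.25 ± 0.055, and Rnf150, a RING finger protein, had -0.25 ± 0.055. Mast1, a microtubule-associated kinase, had -0.19 ± 0.042, Prpf8, a core protein of the spliceosome, had -0.19 ± 0.043, and the signaling ligand Bmp3 had -0.22 ± 0.052. Pcdhb16 and these 5 genes had limma adjusted p-values of 0.0891 or 0.0983.

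Most genes of oxidative phosphorylation had higher values with the bacterium, and of the genes in these lists limma called only Cox8a. On average complex IV had the highest median of these lists, and with duloxetine the mRNAs of the mitochondrial genome did. Over all genes tested, the median average log2 fold change was 0.0028, 7.68% of genes were higher at an unadjusted limma p under 0.05 and 10.4% were lower. Of 15 nuclear complex IV genes all 15 were higher, 12 at an unadjusted p under 0.05 and none lower, with a median of 0.16. Besides Cox8a, Cox7c was higher by 0.23 ± 0.047 (limma adjusted p = 0.0891), with mean normalized counts of 1351 in control, 1709 in R. flavefaciens, 1447 in duloxetine and 1575 in doubly treated mice. DESeq2 called 9 of the 15 as higher, against 2.36% of the 6555 genes to which it gave an adjusted p. Without mouse 9_3 the median was 0.13.

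The other complexes followed with smaller medians. Of 36 complex I genes, 35 were higher and 21 of them at an unadjusted p under 0.05, with a median of 0.11. Ndufa1 was higher by 0.23 ± 0.052 and Ndufs6 by 0.21 ± 0.053, both accessory subunits. Of 10 complex III and cytochrome c genes, 6 were higher at that level (median 0.11), among them Uqcrb and Uqcrq (0.20 ± 0.047). ATP synthase genes were higher in 16 of 17, with 8 at that level (median 0.089), among them Atp5j2 (0.20 ± 0.052) and Atp5k (0.26 ± 0.072). None of these lists held a gene lower at an unadjusted p under 0.05. DESeq2 called 11, 3 and 4 of the members, all higher, against 2.36% of the 6555 genes with a DESeq2 adjusted p. Mouse 9_3 had the highest score of its group for complex I, and without it the medians were 0.085 for complex I, 0.083 for complex III and 0.06 for ATP synthase.

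All 13 mRNAs of the mitochondrial genome were higher, 8 of them at an unadjusted p under 0.05, with a median of 0.14, or 0.056 after quantile normalization and 0.10 without mouse 9_3. DESeq2 called 2 of the 13, both higher. mt-Nd3, a core subunit of complex I, was higher by 0.22 ± 0.075, with means of 5094, 6224, 6292 and 7099 in control, R. flavefaciens, duloxetine and doubly treated mice, and mt-Co3 of complex IV by 0.19 ± 0.065. The median was similar in the strata, 0.14 without and 0.12 with the drug. For the nuclear lists it was larger without duloxetine: 0.22 against 0.084 for complex IV, 0.19 against 0.033 for complex I and 0.18 against -0.0024 for ATP synthase. Mouse 9_3 had the highest score of the R. flavefaciens group in each of these lists. It was 0.43 for complex IV (group median 0.11), 0.37 for complex I (0.056) and 0.37 for ATP synthase (0.064). No gene passed the interaction test after adjustment. At an unadjusted interaction p under 0.05, against 7.53% of all genes, were 10 of 36 complex I genes, 6 of 17 ATP synthase genes and 3 of 15 complex IV genes. One direction in both strata was found in 27 of the 36, 8 of the 17 and 14 of the 15, and in 11 of the 13 mitochondrial mRNAs. A difference between strata was not tested for the lists as such. In contrast, of 18 enzymes of the tricarboxylic acid cycle, which feeds the chain, 3 were higher and 3 lower at that level (median 0.018, which ran from 0.006 without mouse 10_2 to 0.03 without mouse 8_3, and was 0.056 after quantile normalization and -0.011 with the trend in transcript length described below removed). Sdhc, which belongs to both the cycle and the chain, was higher by 0.11 ± 0.041, and Suclg2 by 0.16 ± 0.066.

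Promoters of these genes were read from RefSeq (GRCm38.p6) to show what the members share in sequence. A window of 250 bases before to 50 after the start was found for 63 of the 78 nuclear subunit genes and for 11123 of the genes tested. The letters GCGCATGCG, part of the site of NRF1, a factor known for its role in respiratory genes, were present on either strand in 14.3% of the 63 windows and in 3.52% of all. CCGGAAG, an ETS-type site, was in 20.6% and 16.7%, and AAGATGGCG, a YY1-type site, in 9.52% and 2.98%. Among 59 cytoplasmic ribosomal protein promoters the shares were 3.39%, 39% and 6.78%. A match is a description of these letters only. Windows of Cox8a, Cox7c, Ndufa1, Ndufs6, Atp5j2 and Atp5k were read from 100 bases before the start to 20 after it. Cox8a and Atp5k held a match there, and these 100 bases before to 20 after it are shown 5′ to 3′ with the matches in capitals. Cox8a is at chr19:7217597-7217716 and Atp5k at chr5:108434380-108434499, both on the minus strand.
Cox8a: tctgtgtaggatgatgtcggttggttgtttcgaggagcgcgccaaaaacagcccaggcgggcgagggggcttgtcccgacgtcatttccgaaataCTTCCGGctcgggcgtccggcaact
Atp5k: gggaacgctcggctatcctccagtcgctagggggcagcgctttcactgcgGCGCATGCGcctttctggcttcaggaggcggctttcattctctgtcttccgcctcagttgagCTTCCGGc

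Most ribosomal protein genes had higher values too, and limma called none of them. Of 80 cytoplasmic ribosomal protein genes, 78 were higher, 53 at an unadjusted p under 0.05 and none lower, with a median of 0.13. Rpl39 was higher by 0.28 ± 0.066 and Rpl36a by 0.26 ± 0.063, both of the large subunit. Their pseudogenes share sequence with them, so that single values are less certain. DESeq2 called 17 of the 80 as higher, against 2.36% of the 6555 genes with a DESeq2 adjusted p. By mouse, the score was -0.16 to -0.053 in control mice and -0.057 to 0.46 in R. flavefaciens mice, and -0.21 to 0.14 and -0.12 to 0.21 with duloxetine. Without mouse 9_3 the median was 0.10. Of 77 mitochondrial ribosomal protein genes 18 were higher at that level and none lower (median 0.067), among them Mrpl48 (0.13 ± 0.036) and Mrps33 (0.16 ± 0.05). Proteasome subunits were less uniform. Of 37, 7 were higher and none lower at that level, with Psma7 at 0.14 ± 0.038 and Psma4 at 0.12 ± 0.035, and 14 of the 37 had the same direction in both strata, with 10 at an unadjusted interaction p under 0.05. Their median of 0.047 (0.11 without and -0.025 with duloxetine) was 0.025 without mouse 9_3. DESeq2 called 2 of the 77 mitochondrial ribosomal protein genes and 2 of the 37 proteasome genes, all higher. Of all genes tested, 7.68% were higher at an unadjusted limma p under 0.05.

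Glutamate receptor genes were lower with the bacterium in most members. Of 17 ionotropic glutamate receptor genes 15 were lower, 10 at an unadjusted p under 0.05 and 1 higher at that level, with a median of -0.11 (-0.069 after quantile normalization). Of all genes tested, 10.4% were lower and 7.68% higher at that level. Besides Grin2b, Grin2a had -0.29 ± 0.1 and Gria1 -0.11 ± 0.037, while Gria2, also an AMPA receptor subunit, had -0.038 ± 0.032. Grid1, a delta-type receptor of synapse formation, had -0.14 ± 0.039. All 7 metabotropic receptor genes tested were lower (median -0.096), 3 at that level, with Grm5 at -0.17 ± 0.052. GABA-A receptor genes had 5 lower and 2 higher of 13 (median -0.044, or -0.021 without mouse 8_4, -0.027 without mouse 11_4 and -0.007 after quantile normalization), with Gabrb1 at -0.24 ± 0.055 and Gabrg3 at -0.15 ± 0.049. DESeq2 called 3 of the 17 ionotropic, 1 of the 7 metabotropic and 1 of the 13 GABA-A receptor genes, all lower. Among the 6555 genes with a DESeq2 adjusted p, 4.36% were called lower.

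Sodium and calcium channels gave the lowest median of the 28 pathway and family lists. Of 15 genes of sodium and calcium channel pores, 14 were lower, 8 at an unadjusted p under 0.05 and none higher, with a median of -0.15. Cacna1e, the pore of R-type calcium channels, had -0.30 ± 0.073, with mean normalized counts of 5973 in control, 4611 in R. flavefaciens, 5840 in duloxetine and 5113 in doubly treated mice. Cacna1b, of N-type channels, had -0.17 ± 0.052. Without mouse 9_3 the median was -0.12. Of 35 potassium channel genes 11 were lower and none higher at that level (median -0.087), among them Kcnq3, of the M-current, at -0.20 ± 0.066 and Kcna3 at -0.35 ± 0.13. Of 85 cadherins and protocadherins 29 were lower and none higher (median -0.098). Protocadherins of the alpha and gamma clusters share their last exons, so that these are not 85 separate measurements. Of all genes tested, 10.4% were lower at an unadjusted p under 0.05. DESeq2 called 2 of the 15 sodium and calcium channel genes and 5 of the 85 cadherins and protocadherins, all lower. It called none of the 35 potassium channel genes. Among the 6555 genes with a DESeq2 adjusted p, 4.36% were called lower.

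Synaptic and intracellular signaling genes had smaller medians. Of the 24 entries for postsynaptic scaffolds and adhesion proteins 5 were lower and 1 higher at an unadjusted p under 0.05 (median -0.064, or -0.037 without mouse 9_3 and -0.028 after quantile normalization). The higher one was Nlgn3, a postsynaptic adhesion protein, at 0.12 ± 0.03, and its presynaptic partner family member Nrxn3 had -0.14 ± 0.036. Of 22 vesicle proteins 5 were lower (median -0.048, or -0.012 after quantile normalization), among them Syn1 (-0.13 ± 0.041) and the calcium sensor Syt1 (-0.16 ± 0.052). Of 45 motor protein genes 11 were lower and 4 higher (median -0.018, or -0.0029 without mouse 9_3 and -0.029 without mouse 3_1). Protein kinase A and cyclic AMP genes had 9 lower of 19 (median -0.082, or -0.047 after quantile normalization), with Prkar2a at -0.14 ± 0.044, Adcy3 at -0.16 ± 0.053 and the catalytic subunit Prkacb at -0.11 ± 0.039. The vesicle-tethering protein Uso1 had -0.076 ± 0.035. DESeq2 called none of the 19 protein kinase A and cyclic AMP genes, 1 of the vesicle genes and 4 of the motor genes. All of those called were lower, against 4.36% called lower among the 6555 genes with a DESeq2 adjusted p. Of the 24 postsynaptic entries DESeq2 called 1 higher and 1 lower. At an unadjusted limma p under 0.05, 10.4% of all genes tested were lower and 7.68% higher.

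Receptors for serotonin, noradrenaline and dopamine had 4 lower and none higher of 22 at an unadjusted p under 0.05 (median -0.082). Of all genes tested, 10.4% were lower at that level, and DESeq2 called none of the 22. Htr5a had -0.16 ± 0.052 and Htr1f -0.29 ± 0.11, both serotonin receptors. Adrb1, the beta-1 adrenergic receptor, differed little with the bacterium: its means were 656.4 in control and 650.4 in R. flavefaciens mice, and 499.3 and 475.4 with duloxetine (log2 fold change -0.047 ± 0.055, limma adjusted p = 0.7, exact permutation p = 0.42).

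**Figure D3:**
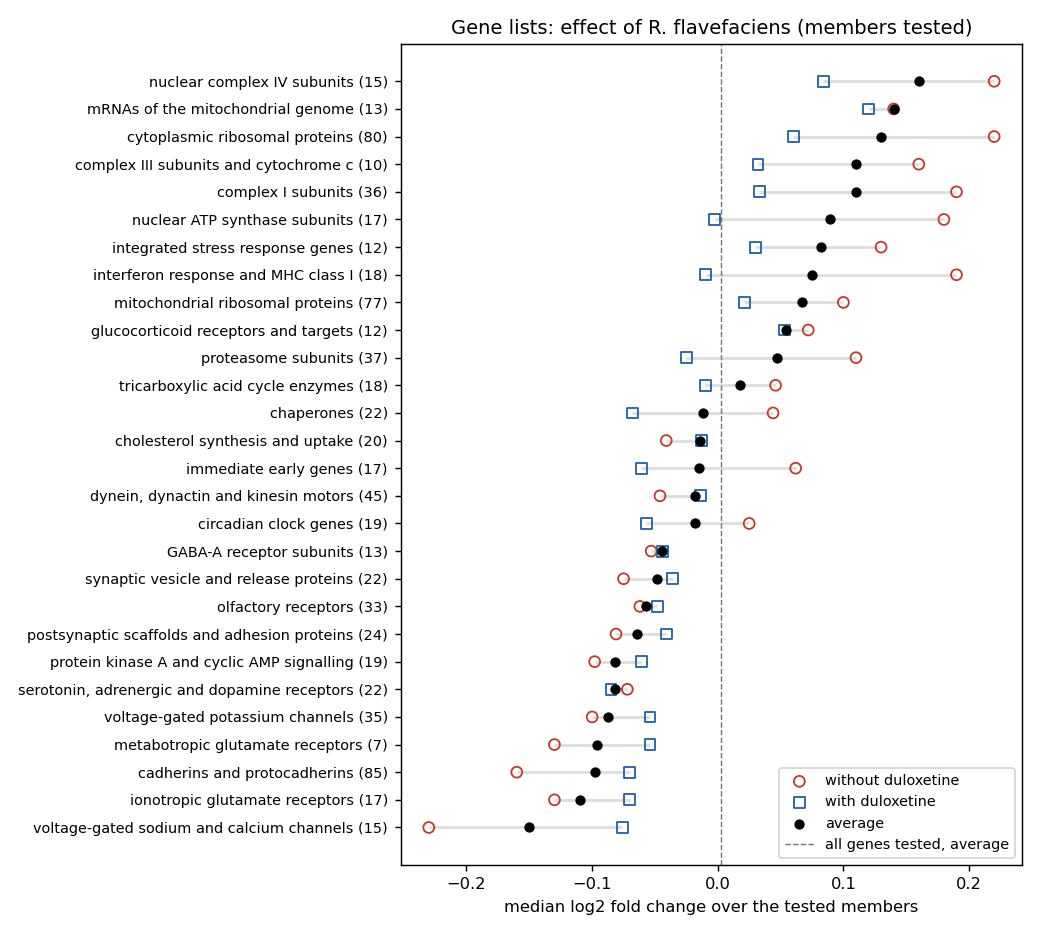
Median log2 fold change over the tested members of 28 gene lists (number of members in brackets), on average (black points), without duloxetine (red circles) and with it (blue squares). The dashed line is the median of all genes tested, 0.0028. Complex IV has the highest average median, 0.16, and sodium and calcium channels the lowest, -0.15.

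Lists of acute and other responses are read against the 7.68% of all genes that were higher and the 10.4% that were lower at an unadjusted p under 0.05. Of 17 immediate early genes, which mark recent neuronal activity, none had an unadjusted p under 0.05 (median -0.015), and Nr4a3 had -0.22 ± 0.12 and Fosl2 -0.20 ± 0.13. Clock genes had 1 higher, Cry1 (0.14 ± 0.052), and 1 lower, Clock (-0.16 ± 0.062), of 19. Of 12 glucocorticoid receptor and target genes 3 were higher and 1 lower (median 0.054, or 0.087 without mouse 11_3), with Tsc22d3 at 0.20 ± 0.072 and Zbtb16 at -0.20 ± 0.073. Interferon and antigen presentation genes had 3 higher of 18 (median 0.075, or 0.049 without mouse 6_1), with Tap2 at 0.25 ± 0.09 and Bst2 at 0.41 ± 0.16. Of 20 cholesterol genes 1 was higher and 2 lower, with Stard4 at -0.13 ± 0.054 and the regulator Srebf2 at -0.072 ± 0.033. Chaperones had 1 higher and 1 lower of 22, with Hspe1 at 0.11 ± 0.04 and Tcp1 at -0.073 ± 0.03. Among 12 stress response genes 1 was higher, Atf4 (0.13 ± 0.035), and 1 lower, Mthfd1l (-0.15 ± 0.045), with a median of 0.082. Of the 33 olfactory receptor genes tested, 1 was higher, Olfr729, and 2 lower, with Olfr1220 at -0.42 ± 0.17, and the median was -0.057 (-0.101 after quantile normalization, and from -0.124 without mouse 3_1 to -0.004 without mouse 7_2). The median of the immediate early genes (0.062 without and -0.061 with duloxetine) ran from -0.042 without mouse 12_4 to 0.07 without mouse 10_2. For the clock list it ran from -0.036 without mouse 12_4 to 0.002 without mouse 11_3, for the cholesterol list from -0.032 without mouse 10_2 to about 0 without mouse 9_2, and for chaperones it ran from -0.023 without mouse 12_4 or 9_1 to 0.001 without mouse 12_2. The medians of all 24 mice were near 0 in these lists, and those of the clock, cholesterol and chaperone lists had the other sign under at least 1 other scaling. That of the immediate early genes was 0.0053 with the trend in transcript length described below removed.

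The direction of a gene went with the length of its transcripts, taken as the median over its annotated transcripts. Genes higher by DESeq2 had a median length of 737 bases and those lower of 2634, against 1582 for all genes tested. Across genes, Spearman's rho of length and average log2 fold change was -0.278, and it was -0.301 without and -0.12 with the drug. In 10 bins of genes by length, the median ran from 0.042 in the shortest to -0.06 in the longest. The higher lists hold short transcripts, such as 527 bases for complex IV, and the lower lists long ones, such as 4754 for sodium and calcium channels. With the trend in length removed from each mouse, the medians were 0.111 for mitochondrial mRNAs, 0.106 for complex IV and 0.10 for cytoplasmic ribosomal proteins. Complex I had 0.073, complex III 0.065, the proteasome 0.024 and sodium and calcium channels -0.13. Ionotropic glutamate receptors had -0.059, potassium channels -0.054, cadherins and protocadherins -0.052 and postsynaptic proteins -0.039. Serotonin, adrenergic and dopamine receptors had -0.053 and olfactory receptors -0.017. The medians of mitochondrial mRNAs, complex IV, cytoplasmic ribosomal proteins and sodium and calcium channels moved by less than 1.5 times. All the others given here were nearer to 0 than before by over 1.5 times. Of the 137 genes with one direction all 137 kept their sign in that fit, and 94 stayed past p 0.05 in both strata. RNA quality of single mice was not analysed here, and its part in these differences was not tested.

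**Figure D4:**
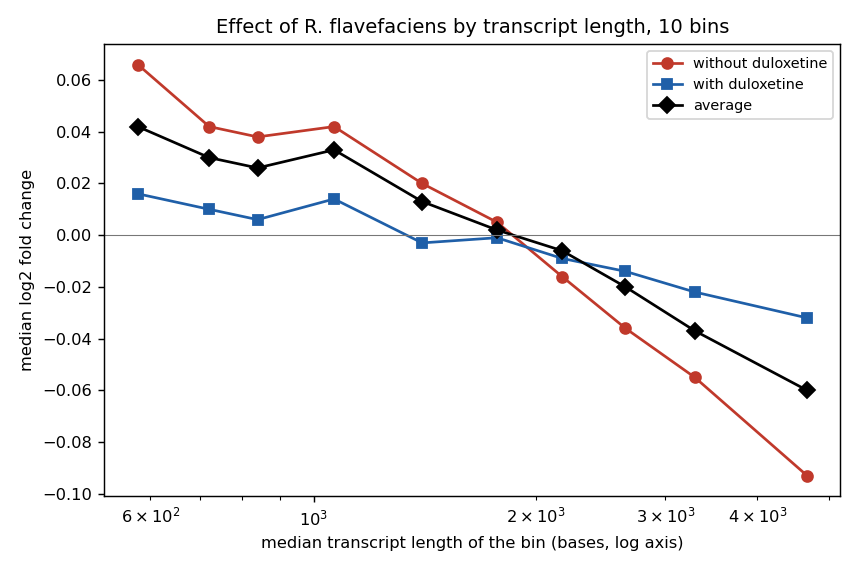
Median log2 fold change with the bacterium in 10 bins of 1495 or 1496 genes ordered by transcript length (log axis), without duloxetine (red), with it (blue) and on average (black). The average runs from 0.042 in the shortest bin to -0.06 in the longest.

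Markers of several cell types also had an unadjusted limma p under 0.05 with the bacterium, while no marker of any list was called. Over all genes tested, 7.68% were higher and 10.4% lower at that level. A count of 1 in lists this short cannot be told apart from those shares. In bulk tissue, fewer cells of a type and less RNA per cell cannot be told apart. Deep-layer cortical markers were lower in all 8, 4 of them at an unadjusted p under 0.05 (median -0.21), with Bcl11b, their most abundant gene, at -0.18 ± 0.063, and Fezf2 at -0.22 ± 0.064. The summed level of the 8 ran from 5569 to 6664 in control mice (median 6167) and from 4237 to 7036 in R. flavefaciens mice (median 5124). With duloxetine it ran from 4594 to 6613 (median 6331), and with both from 4630 to 6433 (median 5227). The groups overlapped in both strata. Of 6 excitatory neuron markers 2 were lower at that level (median -0.072), one of them Tbr1 (-0.15 ± 0.046). Of 5 upper-layer markers 1 was higher (median 0.024, from 0.012 without mouse 9_1 to 0.074 without mouse 8_3, Cux2 0.024 ± 0.031). The upper-layer median was 0.062 after quantile normalization, 0.04 after rescaling to the 75th percentile and 0.008 with the trend in transcript length removed.

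Microglial markers were higher in all 9, 5 at an unadjusted p under 0.05 (median 0.13), against 7.68% of all genes tested. C1qa, which starts the complement cascade, had medians of 474.5 and 574.2 without and of 548.5 and 566.2 with duloxetine (0.23 ± 0.064), while Csf1r, the most abundant of the list, had 0.066 ± 0.053. The summed level was 4267 to 4937 in control and 4784 to 6009 in R. flavefaciens mice, and 4482 to 5778 and 4482 to 6579 with duloxetine. Inhibitory neuron markers were higher in all 7, with 3 at that level, Pvalb (0.33 ± 0.093), Sst (0.22 ± 0.061) and Npy (0.25 ± 0.066), while Gad1, the most abundant, had 0.036 ± 0.033. Their summed level was 10020 to 11440 in control and 11010 to 12180 in R. flavefaciens mice, 10190 to 11150 with duloxetine and 10560 to 12380 with both. Astrocyte markers had 2 higher of 8 (median 0.11, Slc1a2 -0.013 ± 0.062), endothelial and pericyte markers 1 of 8 (median 0.077, or 0.049 without mouse 9_3, 0.048 without mouse 6_1 and 0.036 without mouse 12_2, Rgs5 0.13 ± 0.06), and oligodendrocyte and precursor markers none (medians 0.068 and 0.032, which ran from -0.036 and -0.012 without mouse 12_2 to 0.195 and 0.081 without mouse 12_4), with Mbp at 0.060 ± 0.24 and Olig1 at 0.062 ± 0.11.

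Markers of tissue outside cortex included the lists with the largest medians, choroid plexus and blood. Blood markers, mainly haemoglobin chains, were higher in all 5, 4 at an unadjusted p under 0.05, with a median of 0.57. Of all genes tested, 7.68% were higher at that level. Hbb-bs, the most abundant, had means of 215, 367.9, 282.7 and 384.9 in control, R. flavefaciens, duloxetine and doubly treated mice (0.57 ± 0.21). The summed level was 278.4 to 448.1 in control mice (median 350.1) and 417.8 to 988.3 in R. flavefaciens mice (median 535.4). With duloxetine it was 289 to 983.6 (median 354), and 275.4 to 1090 with both (median 469.6). Of the 3 choroid plexus markers tested 2 were higher at that level, Ttr and Clic6, while Kl, the most abundant on average, was not (-0.10 ± 0.16). Their median was 0.96, and 0.73 without mouse 8_4. Ttr, the thyroid hormone carrier of the choroid plexus, was at 0 in 3 of the 24 mice and at 657.1 in mouse 8_4. Striatal markers had a median of 0.20, with 2 of 8 higher at that level, and 0.048 without mouse 8_4 or 0.108 without mouse 11_4. Their most abundant gene, Ppp1r1b, had 0.18 ± 0.15, and the summed level was 1717 to 2517 in control, 1574 to 6089 in R. flavefaciens, 1528 to 2029 in duloxetine and 1615 to 3570 in doubly treated mice. Meningeal markers had none past that level, and their median of 0.015 (0.21 without and -0.33 with duloxetine) was -0.025 after quantile normalization and ran from -0.054 without mouse 7_2 to 0.148 without mouse 2_2. Folr1, Otx2 and Kcnj13, further markers of the choroid plexus, are not in the table. The part of these tissues in the average effect was not tested.

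**Figure D5:**
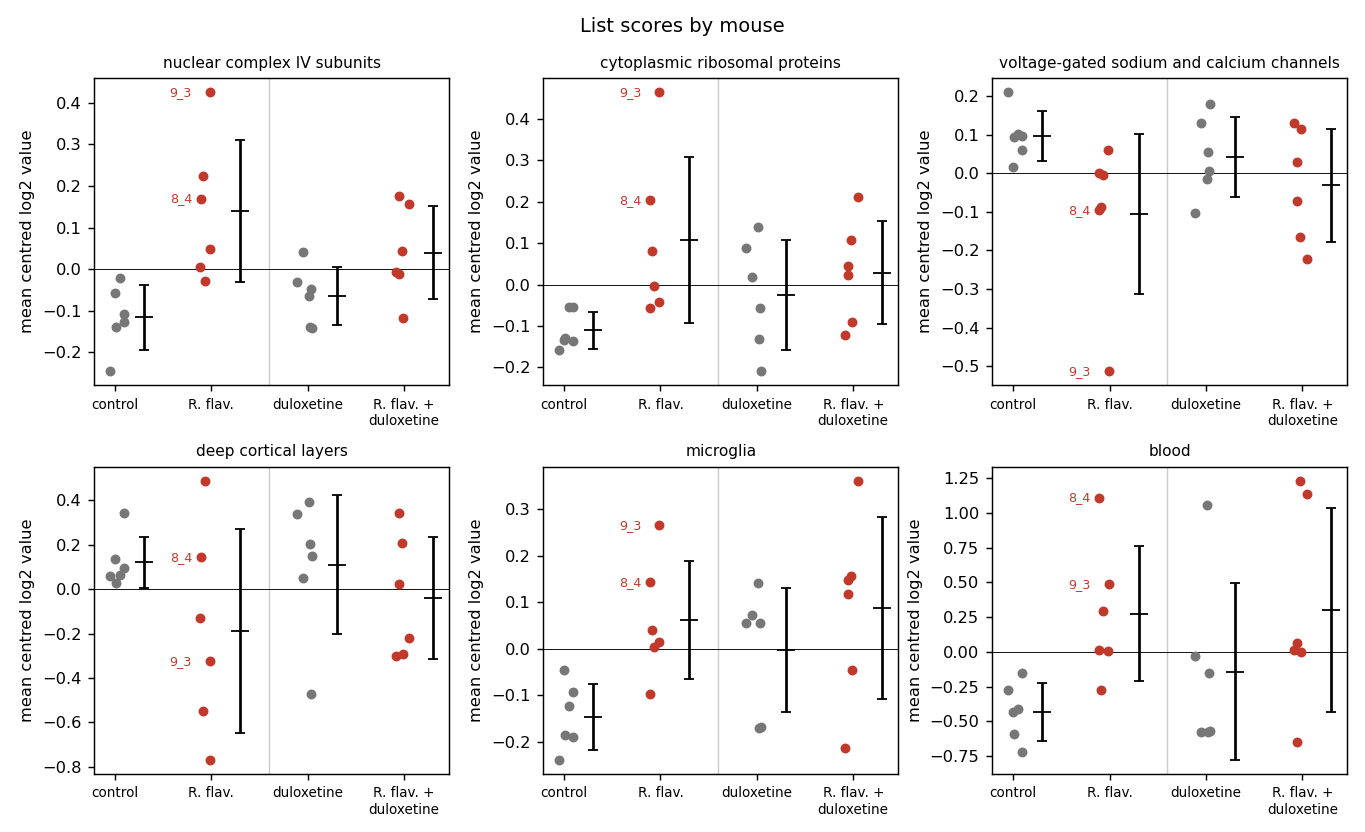
Score of 6 gene lists in each mouse (mean over the list of each gene's log2 value minus its mean over all mice), with the mean and SD of each group as black bars. Mice given the bacterium are in red and mice 9_3 and 8_4 are marked. Mouse 9_3 is highest for ribosomal proteins and lowest for sodium and calcium channels, and the blood score is 1.1 in mouse 8_4.

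The interaction asks whether the effect of the bacterium differed with duloxetine. No gene was called by limma, DESeq2 or edgeR, while 1128 genes (7.53%) had an unadjusted limma p under 0.05, with 1075 for DESeq2 and 1099 for edgeR. The smallest p was that of Znrf3, a ubiquitin ligase that dampens Wnt signaling, with log2 fold changes of -0.32 without and 0.059 with the drug (adjusted p = 0.639). Gm29237 had -0.69 and 0.83, Ccng2, an unconventional cyclin, 0.14 and -0.14, and Hagh, an enzyme of methylglyoxal removal, 0.17 and -0.15. Each of these 3 was past an unadjusted p of 0.05 in both strata with opposite directions, and none passed the interaction test after adjustment.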

How the data were processed

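The authors aligned the reads and deposited DESeq2-normalized counts per gene (unit signal, read counts divided by a factor a mouse). The submitters' processing notes name TopHat2 2.1.0, Bowtie2 2.2.6 and DESeq2 1.18.1. They name build mm9 and the study's methods GRCm38, and 14285 genes have the positions of GENCODE vM21 (GRCm38), which is used here. The counting program is not given in the sources used here. Whole reads were recovered in at least 99.9741% of the values of each mouse, within 0.0051 of a whole number. Within a group no 2 libraries agreed within sampling noise (60 pairs). The labels name separate mice.

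Values were fitted as log2(value + 1) with limma 3.58.1 (R 4.3.3, trend in the prior variance, 20 residual degrees of freedom), 4 groups in one fit, leaving out genes whose mean was under 10 (14974 were tested), with Benjamini-Hochberg adjustment. Fold changes understate those of low genes. Single genes were also tested by an exact permutation test of the mice within strata. DESeq2 1.42.0 and edgeR 4.0.16 were run on the recovered reads, and other alternatives are given under the dependence on processing. Lengths come from GENCODE vM21 and promoters from RefSeq. The limma step was tested on simulated data.

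Genes named are those called, by p the first 10 in each direction among those of one direction and p under 0.05 in both strata, the 1 or 2 members with the smallest p of each list, the smallest interaction p-values, genes that the study names (1 of them is not reported here), and the most abundant marker of each list. Other genes named (Tbr1, Fezf2, C1qa, Pvalb, Sst, Npy, Ttr, Clic6, Cox6c, Grin1, Pcdh17 and Pcdha11) were chosen after their values were seen. Members and lists were chosen with earlier results of these data known.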

Additional observations from a re-analysis of the deposited data

Results flagged for a closer look

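In groups of 6 mice, the highest or lowest value was set against Dixon's critical value for a gap relative to the range, and 20 of 248 checks passed it, where chance gives about 1 in 20. Mouse 9_3, of the R. flavefaciens group, stood apart from its group in Olfr729 (normalized count 465), Cox8a (4603), AC161763.1 (45880), Tma7 (1702) and Dync1h1 (9817), and in the score of voltage-gated sodium and calcium channels (-0.512). In the same group mouse 9_1 stood apart in the score of chaperones (0.288). With both treatments, mouse 12_2 had the lowest Rnf150 (normalized count 1062), mouse 10_2 the highest score of complex I subunits (0.109) and mouse 11_4 the highest of striatum markers (1.04).

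Among duloxetine mice, mouse 6_2 had the highest Sat1 (normalized count 442.1), motor protein score (0.0775) and olfactory receptor score (0.336). In that group mouse 5_1 stood apart in the score of tricarboxylic acid cycle enzymes (0.0134) and mouse 6_3 in that of blood (1.06). Of the control mice, mouse 2_3 stood apart in the scores of metabotropic glutamate receptors (-0.0181) and of protein kinase A and cyclic AMP signaling (0.0157), mouse 3_3 in that of deep cortical layers (0.341), mouse 2_2 in that of meningeal fibroblasts (1.12) and mouse 2_1 in its recovered reads (14450000).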

How the results depend on the processing

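The average effect had 4 calls by limma and 2 after quantile normalization, while DESeq2 called 441 genes, DESeq2 with p-values adjusted over every gene (added after seeing the data) 194, and an adjusted p under 0.1 gave 201. Leaving out 1 mouse at a time gave 1 to 135 calls. Without duloxetine the 4 calls became 488 with DESeq2, 352 with its p-values adjusted over every gene, 579 at an adjusted p under 0.1, 221 with a random block for mice whose labels share a first number and 0 with each stratum fitted alone, and leaving out 1 mouse gave 0 (without mice 1_1, 2_2, 2_3 or 9_3) to 616 (without 9_2). With duloxetine DESeq2 called 1 gene either way, and leaving out 1 mouse gave 0 to 2 calls. Interaction calls stayed at 0 in every alternative run. Genes past p 0.05 in both strata with one direction numbered 206 with each stratum alone and 72 (without 12_2) to 259 (without 12_4) when 1 mouse was left out. Those with opposite directions numbered 41 with the block and 16 to 52 without 1 mouse. The cause of these differences was not tested. The block's consensus correlation was -0.0451. No paired analysis was possible because the groups compared share no mouse and no first label number. Of 2981 values of named genes under an alternative, 2859 kept their side of the threshold, 24 lost a call, 98 gained one and 0 reversed a call. The choroid plexus list had no member at a mean of at least 50. Of 1352 list medians under an alternative, 43 had the other sign, in lists with medians from -0.018 to 0.068. Genes with a mean under 10 were not tested.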
